A study of Mus musculus with 8 samples.

Results

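Cytosolic ribosomal protein genes were followed after aldosterone in mpkCCDc14 cells, which are a line of mouse cortical collecting duct, an aldosterone-sensitive segment of the kidney tubule. The members were the genes whose annotated symbol begins with Rpl, Rps or Rplp and a digit, together with Rpsa, with the Rps6k kinases left out. In all 63 genes met this rule among 12746 genes named by a single symbol on the arrays, each read by 1 probe, and 62 of them had values at both times. They comprised 35 genes of the large subunit, 3 of the stalk (Rplp0, Rplp1, Rplp2), 19 of the small subunit and 6 genes named as paralogs (Rpl3l, Rpl7l1, Rpl22l1, Rpl36al, Rpl39l, Rps27l). The gene table of assembly GRCm38.p6 places the members on 17 chromosomes and holds 88 protein-coding genes that fit the rule, and the other genes were not analysed here. Cells grown on collagen-coated filters and kept in steroid-free serum received 1 µM aldosterone for 6 h or for 1 h, or the ethanol vehicle for the same time. Each time was measured on 4 dual-colour arrays, 8 in all, with the aldosterone sample in Cy5 and its vehicle sample in Cy3. A log2 ratio above 0 thus means a higher signal with aldosterone. All samples are of 1 cell line. The labels do not state that arrays stand for separate cultures, and the p-values then measure a spread between arrays that may be technical.

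The cytosolic ribosome is built from ribosomal RNA and a set of proteins that are needed in matched amounts, divided between a small subunit that reads the messenger RNA and a large subunit that forms peptide bonds. The messenger RNAs of most ribosomal proteins begin with a run of pyrimidines, the 5′ terminal oligopyrimidine (TOP) tract, through which mTOR signalling controls their translation together. Aldosterone acts on collecting duct cells through the mineralocorticoid receptor and raises sodium reabsorption.

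A mean log2 ratio is given with its standard error (n = 4 arrays) from 1 limma fit of the 8 arrays. Each adjusted p comes from that fit, by the Benjamini-Hochberg method over the 15079 features tested, and a gene passed where it was under 0.05. Because the dyes were never exchanged, every ratio also holds any difference in how a gene takes up Cy5 and Cy3, and the hormone's effect cannot be told apart from it. A ratio holds no level of expression, so the labelled cell type could not be checked against the level of its markers. Of 11 markers of principal cells, the labelled cell type, 2 were above vehicle and 1 below at 6 h (median -0.04), and 3 above and 2 below at 1 h (median 0.10). Markers of intercalated, fibroblast, endothelial, blood and proximal tubule cells had list medians between -0.24 and 0.10 at 6 h and between -0.29 and -0.01 at 1 h. In the endothelial list 3 of 4 genes were below vehicle at 1 h, and 1 of 4 without replicate 4. The principal cell list then had 2 above and 2 below at 1 h (median 0.07). The shares over all features were 7.11% above and 10.6% below at 6 h, and 19.9% and 21% at 1 h. Without replicate 4 the 1 h shares were 13.4% and 15.3%. Replicate 4 at 1 h stood apart before any gene was considered: the standard deviation of its log2 ratios over all features was 0.576, against 0.341 to 0.348 on the other 3 arrays at 1 h. The 1 h counts and medians are therefore given with and without it, and so is a gene's 1 h mean where leaving it out ends or adds a call or moves the mean by over 1.5 times. Among the 6 h arrays replicate 4 had the widest spread, with a standard deviation of 0.481, against 0.300 to 0.380 on the others. Mouse ribosomal protein genes have many processed copies in the genome, and which copies each probe reads was not tested.

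On each of the 8 arrays more members lay above a ratio of 1 than below it. At 6 h the members' median log2 ratio was 0.04, 0.11, 0.18 and 0.22 on replicates 1 to 4. At 1 h it was 0.34, 0.20 and 0.22 on replicates 1 to 3 and 1.10 on replicate 4. The median over all features lay between -0.005 and 0.005 on every array. Of the 62 members 37, 47, 52 and 52 were above 0 on the arrays at 6 h, and 54, 53, 53 and 54 on those at 1 h. Replicate 1 at 6 h was the array on which the members stood nearest to the other features, with 56.3% of all features below the members' median. On replicate 4 at 1 h the corresponding share was 97.4%, and 37 members (59.7%) lay in the top 5% of that array, against 1 to 9 members on the other 7 arrays. In units of each array's own standard deviation the members' median was 1.9 there, against 0.992, 0.56 and 0.66 on replicates 1 to 3 at 1 h.

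**Figure D1:**
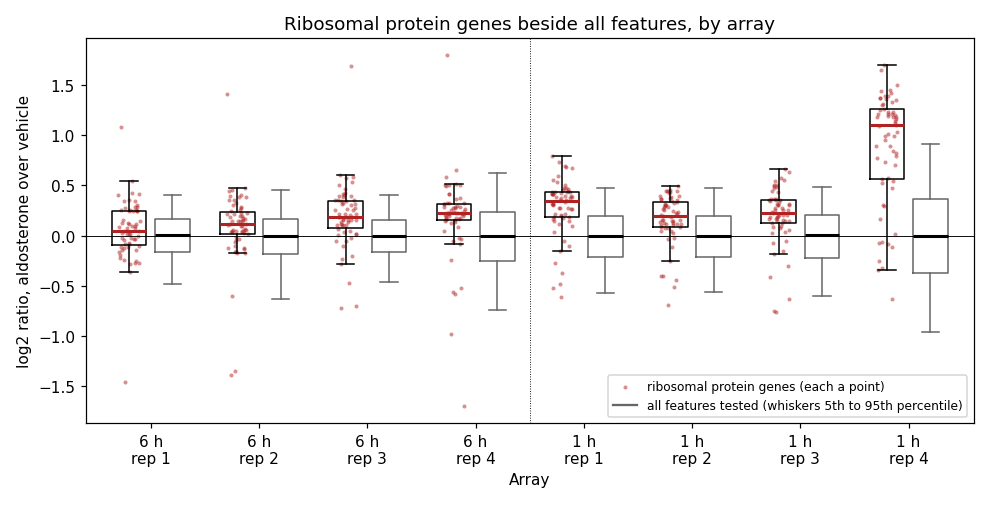
Log2 ratios of aldosterone over vehicle on each array, with the 62 members as red points and boxes (red line, median; box, quartiles; whiskers, 1.5 times the interquartile range) beside all 15079 features in grey (whiskers, all but the lowest and highest 5%). The 4 arrays at 6 h are on the left and the 4 at 1 h on the right, and the members' median reaches 1.10 on replicate 4 at 1 h, against 0.04 to 0.34 on the other arrays.

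The members' ratios were more alike between arrays of one time than between the times. Over the 62 members, Pearson's r between arrays of the same time was 0.55 to 0.92 at 6 h and 0.63 to 0.86 at 1 h, and between arrays of different times 0.17 to 0.67. Over all features these ranges were 0.47 to 0.60, 0.61 to 0.72 and 0.31 to 0.59. These are descriptions across genes, which share a library on each array and are not replicates. The spread of a member between the 4 arrays had a median standard deviation of 0.116 at 6 h, against 0.156 over all features. At 1 h the members' value was 0.4, against 0.184 over all features, and without replicate 4 it was 0.099, against 0.121. Replicate 4 gave the highest of the 4 values at 1 h for 56 of 62 members, and for 37.7% of all features.

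**Figure D2:**
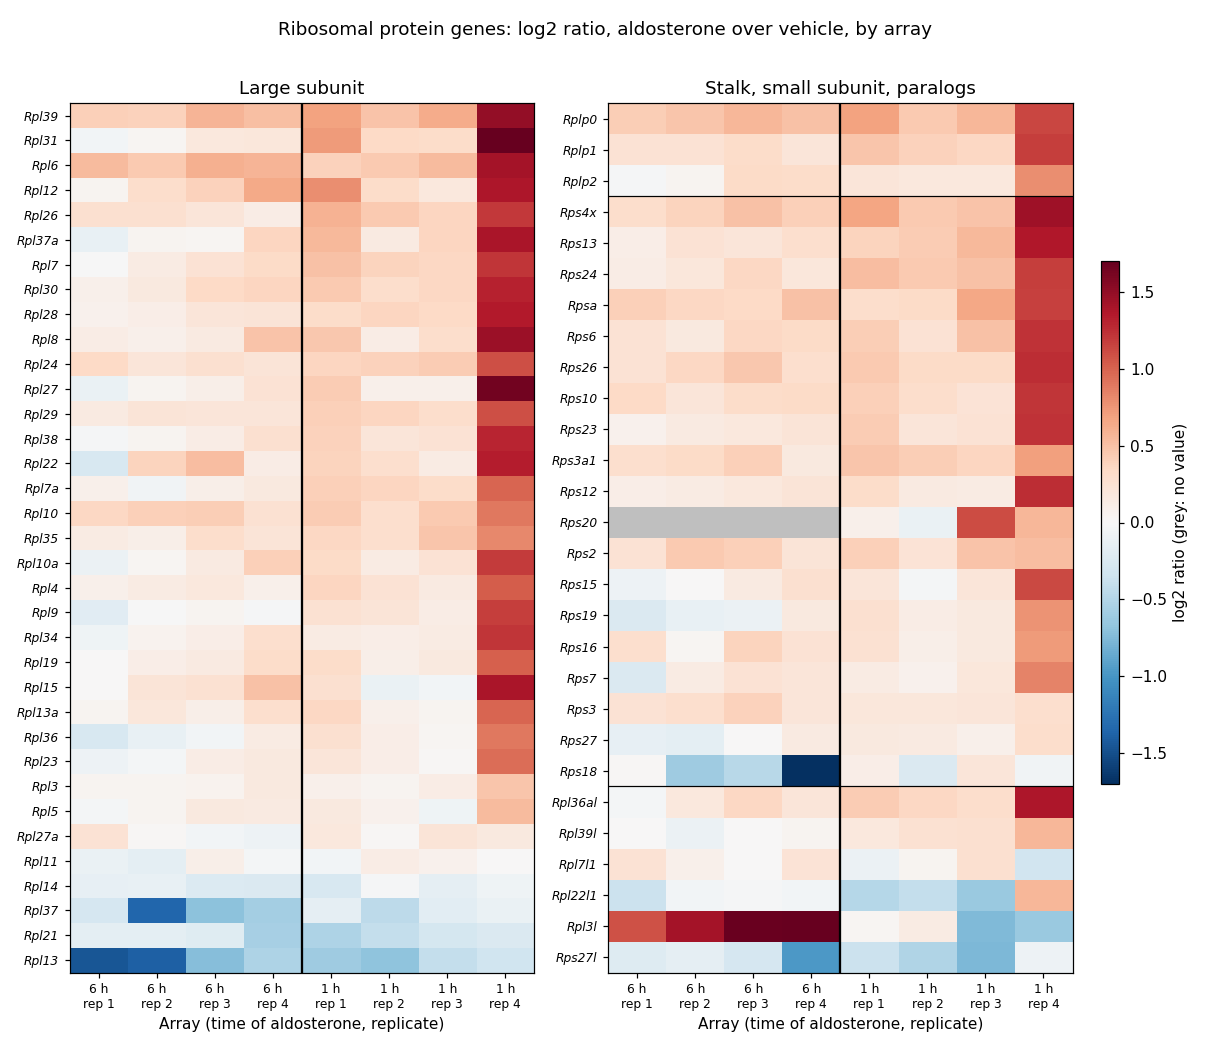
Heat map of the log2 ratio of each of the 63 members on every array, large subunit genes on the left and stalk, small subunit and paralog genes on the right, divided by horizontal lines and each ordered by the mean at 1 h. Red is above vehicle, blue below and grey marks the missing values of Rps20 at 6 h. The column of replicate 4 at 1 h holds the most dark red cells, Rpl3l is dark red on the 4 arrays at 6 h and pale or blue at 1 h, and Rpl13 is blue on all 8 arrays.

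At 6 h the count of ribosomal protein genes that differed from vehicle depended on the fit. Of the 62 members 8 were above vehicle, 2 were below and 52 did not pass, against 7.11% above and 10.6% below over all features (17.7% in either direction). The 8 were Rpl3l, Rpl6, Rplp0, Rpl39, Rpl10, Rps2, Rps3a1 and Rps3, and the 2 below were Rpl13 and Rpl37. The members' median was 0.16 (quartiles 0.07 and 0.25), against 0.00 over all features. All 4 arrays were above 0 for 33 members and below 0 for 6, where 22.4% and 23.5% of all features had such signs. The fit pools the spread of both times. The count above vehicle was 22 without replicate 4 at 1 h (against 12.3% of all features), 23 with arrays scaled to one spread (15.7%) and 26 with one-class SAM (16.1%). With the 6 h arrays fitted alone 15 members were above and 2 below (6.91% and 8.69%), and with 1.5-fold required as well 1 was above and 2 were below (1.01% and 3.01%). The count above vehicle fell to 1 without replicate 3 at 6 h and to 2 without replicate 2. How far the share over all features fell in those fits was not counted. Of the 8 calls, that of Rpl3l held without each array in turn, and both calls below vehicle did so too.

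At 1 h most ribosomal protein genes were above vehicle. Of the 62 members 40 were above, 3 were below and 19 did not pass, against 19.9% above and 21% below over all features (40.9% in either direction). The 3 below were Rpl13, Rps27l and Rpl21. The members' median was 0.47 (quartiles 0.31 and 0.60), against 0.00 over all features. Some 49 members were above 0 on all 4 arrays and 5 below 0 on all 4, where 28.2% of all features had each sign. Without replicate 4 the median was 0.25, with 32 members above vehicle, each of which was among the 40, and 4 below (13.4% and 15.3% of all features). The fourth was Rpl22l1. Of the 40 calls above vehicle 29 held without each of the 8 arrays in turn, and of the 3 calls below that of Rpl21 did. With the 1 h arrays fitted alone the count was 26, and 14.3% of all features were above vehicle in that fit. With 1.5-fold required as well 18 members were above and 0 below, against 2.67% and 5.25%. The part of signal strength or array quality in these counts was not tested.

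Counts by subunit are set beside the shares over all features. These were 7.11% above vehicle and 10.6% below at 6 h, and 19.9% and 21% at 1 h. At 6 h the large subunit had 3 of 35 genes above vehicle and 2 below with a median of 0.12, and the small subunit had 3 of 18 above and none below with a median of 0.22. At 1 h the large subunit had 21 of 35 above and 2 below, the small subunit 14 of 18 above and none below, and each had a median of 0.48. Without replicate 4 the large subunit had 16 above and 2 below at 1 h (median 0.26), and the small subunit 12 above and none below (median 0.30). Over all features 13.4% were above and 15.3% below at 1 h in that fit. No test between the subunits was made. At 6 h the medians by array were 0.01, 0.06, 0.15 and 0.22 in the large subunit and 0.18, 0.18, 0.32 and 0.22 in the small one.

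The stalk proteins form the flexible arm of the large subunit that recruits the GTPases of elongation, and Rplp0 is its base. Rplp0 had log2 ratios of 0.42, 0.47, 0.57 and 0.50 at 6 h and of 0.68, 0.44, 0.57 and 1.14 at 1 h, above vehicle on every array. Its mean was 0.49 ± 0.10 at 6 h (1.4-fold, adjusted p = 0.0129, and 0.0524 without replicate 3 at 6 h). At 1 h it was 0.71 ± 0.10 (1.63-fold, adjusted p = 0.00166), and 0.56 ± 0.07 without replicate 4 (adjusted p = 0.00346). Rplp1 and Rplp2 form dimers on that base. Rplp1 had 0.24, 0.25, 0.31 and 0.20 at 6 h (mean 0.25 ± 0.12, adjusted p = 0.179) and 0.47, 0.39, 0.35 and 1.18 at 1 h (0.60 ± 0.12, adjusted p = 0.00555). Its 6 h values were below all its 1 h values. The 6 h mean of Rplp1 passed without replicate 4 at 1 h (adjusted p = 0.0117). Rplp2 had -0.02, 0.05, 0.32 and 0.31 at 6 h (0.16 ± 0.11, adjusted p = 0.319) and 0.21, 0.18, 0.18 and 0.79 at 1 h (0.34 ± 0.11, adjusted p = 0.0349). Without replicate 4 its 1 h mean was 0.19 and did not pass (adjusted p = 0.114), nor did it without replicate 1 or 3 (0.0543 and 0.052).

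Among large subunit genes the highest mean at 1 h was that of Rpl39, a very small protein at the wall of the exit tunnel. It had 0.41, 0.39, 0.58 and 0.51 at 6 h and 0.69, 0.49, 0.63 and 1.50 at 1 h. The means were 0.47 ± 0.14 at 6 h (adjusted p = 0.0447) and 0.83 ± 0.14 at 1 h (adjusted p = 0.00278). The 6 h call was lost without any one of the 4 arrays at 6 h (adjusted p from 0.0928 to 0.136) and without replicate 1 or 3 at 1 h (0.0609 and 0.0604), though each of its 8 ratios was above 0. Without replicate 4 the 1 h mean of Rpl39 was 0.60 ± 0.07 (adjusted p = 0.00334).

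Rpl6, which lies on the solvent side of the large subunit, had 0.54, 0.44, 0.60 and 0.58 at 6 h, against 0.39, 0.45, 0.54 and 1.42 at 1 h. Apart from replicate 4 at 1 h, its ratios at the times lay in the same range. Its means were 0.54 ± 0.15 at 6 h (adjusted p = 0.0333, lost without any one array at 6 h) and 0.70 ± 0.15 at 1 h (adjusted p = 0.00596). Rpl10, which completes the large subunit late in its assembly, had 0.35, 0.40, 0.42 and 0.26 at 6 h (0.36 ± 0.09, adjusted p = 0.0298, lost without any one array at 6 h). At 1 h its values were 0.43, 0.28, 0.44 and 0.89 (0.51 ± 0.09, adjusted p = 0.00376). Rpl31 and Rpl37a, both of the large subunit, had their high values at 1 h. Rpl31 had -0.04, 0.03, 0.18 and 0.19 at 6 h (0.09 ± 0.19, adjusted p = 0.769), against 0.73, 0.34, 0.31 and 1.69 at 1 h (0.77 ± 0.19, adjusted p = 0.0118). Rpl37a had -0.12, 0.05, 0.03 and 0.37 at 6 h (0.08 ± 0.17, adjusted p = 0.764), against 0.55, 0.15, 0.36 and 1.39 at 1 h (0.61 ± 0.17, adjusted p = 0.0189). The times did not overlap for Rpl31 and overlapped for Rpl37a. Without replicate 4 the 1 h means of Rpl31, Rpl6 and Rpl37a were 0.46, 0.46 and 0.35, and each passed (adjusted p = 0.0109, 0.00391 and 0.0391).

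In the small subunit Rps4x, an X-linked gene, had 0.30, 0.38, 0.50 and 0.41 at 6 h (0.40 ± 0.14, adjusted p = 0.0797) and 0.67, 0.44, 0.49 and 1.44 at 1 h (0.76 ± 0.14, adjusted p = 0.00397). Its 6 h mean passed without replicate 4 at 1 h (adjusted p = 0.00464). Rps13 had 0.11, 0.24, 0.21 and 0.28 at 6 h (0.21 ± 0.14, adjusted p = 0.315) and 0.38, 0.43, 0.55 and 1.36 at 1 h (0.68 ± 0.14, adjusted p = 0.00566), with no overlap between the times. Without replicate 4 the 1 h means of Rps4x and Rps13 were 0.53 and 0.45, and both passed (adjusted p = 0.00378 and 0.00417). The 6 h mean of Rps13 also passed without that array (adjusted p = 0.0285). Rpsa, which is also known as the laminin receptor, had 0.40, 0.35, 0.34 and 0.50 at 6 h (0.40 ± 0.13, adjusted p = 0.056, and 0.00768 without replicate 4 at 1 h). At 1 h Rpsa had 0.30, 0.32, 0.66 and 1.16 (0.61 ± 0.13, adjusted p = 0.00569). Rps2 and Rps3, which lie near the entry of the messenger RNA channel, had smaller steps on replicate 4 at 1 h. Rps2 had 0.24, 0.45, 0.41 and 0.22 at 6 h (0.33 ± 0.07, adjusted p = 0.0161, lost without replicate 2 or 3 at 6 h) and 0.41, 0.23, 0.48 and 0.52 at 1 h (0.41 ± 0.07, adjusted p = 0.00334). Rps3 had 0.24, 0.28, 0.39 and 0.20 at 6 h (0.28 ± 0.06, adjusted p = 0.0158, lost without replicate 2 or 3 at 6 h) and 0.19, 0.19, 0.20 and 0.29 at 1 h (0.22 ± 0.06, adjusted p = 0.0196, lost without replicate 3). Rps6, the substrate of the S6 kinases, had 0.24, 0.16, 0.35 and 0.32 at 6 h (0.27 ± 0.14, adjusted p = 0.19) and 0.42, 0.24, 0.50 and 1.23 at 1 h (0.60 ± 0.14, adjusted p = 0.00807, and 0.39 without replicate 4, adjusted p = 0.00845). The 6 h mean of Rps6 passed without replicate 4 at 1 h (adjusted p = 0.0183). Rps6 lies outside the rule by which genes were singled out and was added for its kinases. Rps20 had no values at 6 h. At 1 h it had 0.08, -0.11, 1.11 and 0.57, and its mean of 0.41 ± 0.19 did not pass in a fit of the 1 h arrays alone (adjusted p = 0.141).

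Rpl13, a large subunit protein, had the lowest mean of the members at both times. It was 1 of 5 members with a log2 ratio below 0 on all 8 arrays, with Rpl14, Rpl21, Rpl37 and Rps27l. Over all features 15.1% had such signs. The values of Rpl13 were -1.46, -1.39, -0.72 and -0.52 at 6 h and -0.61, -0.69, -0.41 and -0.34 at 1 h. Replicates 1 and 2 at 6 h were the lowest, and the times overlapped. The mean was -1.02 ± 0.15 at 6 h (0.492-fold, adjusted p = 0.00348), and it lay between -1.19 and -0.88 with an array left out, with an adjusted p of at most 0.0195. At 1 h the mean was -0.51 ± 0.15 (0.701-fold, adjusted p = 0.0226), and the call ended when replicate 1, 2 or 3 of that time was dropped (adjusted p from 0.0505 to 0.0777). It held without replicate 4 (0.0438). It was also lost with arrays scaled to one spread (adjusted p = 0.0843). The difference of 6 h minus 1 h was -0.51 ± 0.21 and did not pass (adjusted p = 0.291, interval -0.98 to -0.04). Rpl13 was the lowest member on replicates 1 to 3 at 6 h and on replicates 1 and 2 at 1 h. The similarly named Rpl13a is a different protein of the same subunit and had means of 0.15 ± 0.14 at 6 h (adjusted p = 0.449) and 0.37 ± 0.14 at 1 h (adjusted p = 0.0549), or 0.16 without replicate 4 (adjusted p = 0.169).

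Of the other members Rpl37 was below vehicle at 6 h and Rpl21 at 1 h. Rpl37, a zinc-binding protein of the large subunit, had -0.28, -1.35, -0.70 and -0.58 at 6 h and -0.15, -0.44, -0.18 and -0.11 at 1 h, below 0 on every array. Its mean was -0.73 ± 0.14 at 6 h (0.604-fold, adjusted p = 0.0101) and -0.22 ± 0.14 at 1 h (adjusted p = 0.239). Without replicate 2, its lowest array, the 6 h mean was -0.52 (adjusted p = 0.0256). Rpl21 had -0.16, -0.17, -0.20 and -0.56 at 6 h (-0.27 ± 0.08, adjusted p = 0.0501) and -0.52, -0.40, -0.30 and -0.25 at 1 h (-0.37 ± 0.08, adjusted p = 0.00829), again below 0 on every array. Its 6 h mean passed without replicate 4 at 1 h (adjusted p = 0.0376). Rpl14 had -0.14, -0.13, -0.23 and -0.24 at 6 h (mean -0.18, adjusted p = 0.0758) and -0.27, -0.02, -0.15 and -0.07 at 1 h (mean -0.13, adjusted p = 0.141), and passed at neither time. Rps18, at the head of the small subunit, had 0.02, -0.60, -0.47 and -1.69 at 6 h (-0.69 ± 0.21, adjusted p = 0.0539) and 0.11, -0.25, 0.20 and -0.06 at 1 h, where the mean was 0. Replicate 4 was far the lowest, and without it the 6 h mean was -0.35 (adjusted p = 0.139). The mean passed with arrays scaled to one spread (-0.71, adjusted p = 0.0186) and without replicate 1 (-0.92, adjusted p = 0.0284). Rpl11 and Rpl5, which bind Mdm2 when ribosome assembly is disturbed, did not pass at either time: Rpl11 averaged -0.05 ± 0.07 at 6 h and 0.04 ± 0.07 at 1 h, and Rpl5 0.08 ± 0.09 at 6 h and 0.17 ± 0.09 at 1 h, or 0.05 at 1 h without replicate 4.

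**Figure D3:**
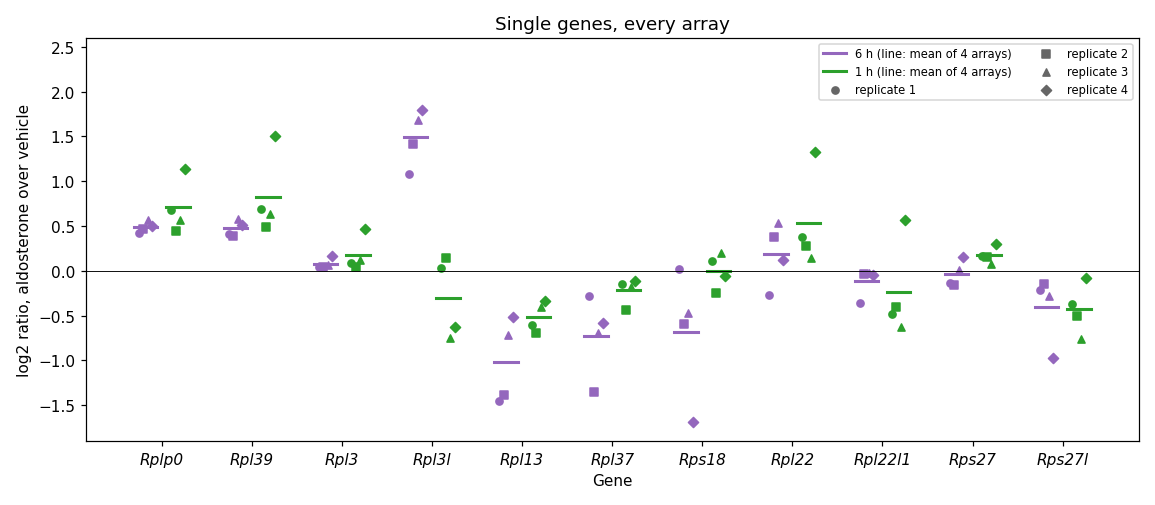
Log2 ratio of 11 members on every array, 6 h in purple on the left of each pair and 1 h in green on the right, with the replicate shown by the marker and the mean by a line. Rplp0 and Rpl39 are above 0 on all 8 arrays, Rpl13 and Rpl37 below 0 on all 8, and Rpl3l is at 1.08 to 1.79 at 6 h, against -0.75 to 0.14 at 1 h.

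Rpl3l, the counterpart of Rpl3 in the ribosomes of striated muscle, had the largest ratio of the members at 6 h. It had 1.08, 1.41, 1.68 and 1.79 at 6 h, against 0.03, 0.14, -0.75 and -0.63 at 1 h, and the times did not overlap. At 1 h replicates 1 and 2 were near 0 and replicates 3 and 4 below it. The mean was 1.49 ± 0.16 at 6 h (2.81-fold, adjusted p = 0.00122), and with an array left out it was 1.39 to 1.63 with an adjusted p of at most 0.00741. At 1 h the mean was -0.30 ± 0.16 (adjusted p = 0.161), or -0.19 without replicate 4 (adjusted p = 0.454). The difference of 6 h minus 1 h was 1.79 ± 0.23 (interval 1.28 to 2.31, adjusted p = 0.0445), and Rpl3l was 1 of 5 features called higher at 6 h over the whole table (0.0332% of all features, and 0.0398% in either direction). That call was narrow: the difference was 1.64 to 1.94 with an array left out, and the adjusted p then ran from 0.0679 to 0.161, and it was 0.0536 with each probe tested by itself. Rpl3 itself had 0.04, 0.04, 0.06 and 0.16 at 6 h (0.08 ± 0.08, adjusted p = 0.532) and 0.09, 0.04, 0.12 and 0.47 at 1 h (0.18 ± 0.08, adjusted p = 0.0936, and 0.08 without replicate 4). Of 22 striated muscle markers none was above vehicle at 6 h and 1 was below, with a median of 0.05, and 1 was above and 6 below at 1 h, with a median of -0.04, or 1 above and 4 below without replicate 4. Over all features 7.11% were above and 10.6% below at 6 h, and 19.9% and 21% at 1 h. Without replicate 4 the 1 h shares were 13.4% and 15.3%. Among the muscle markers Tnnt3, a troponin of fast muscle, had 0.21 ± 0.10 at 6 h (adjusted p = 0.156) and -0.43 ± 0.10 at 1 h (adjusted p = 0.0081). Tnni1 went the other way, with 0.28 ± 0.10 at 6 h (adjusted p = 0.0831) and 0.425 ± 0.10 at 1 h (adjusted p = 0.0106). Its 6 h mean passed without replicate 4 at 1 h (adjusted p = 0.0274). Myl1 had -0.11 ± 0.09 at 6 h (adjusted p = 0.41) and -0.355 ± 0.09 at 1 h (adjusted p = 0.0116). How far the signal of Rpl3l stood above background is unknown.

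The other paralogs differed from one another. Rps27l, known in human cells as a target of p53, had -0.22, -0.15, -0.28 and -0.98 at 6 h (-0.41 ± 0.14, adjusted p = 0.0771) and -0.37, -0.51, -0.76 and -0.08 at 1 h (-0.43 ± 0.14, adjusted p = 0.0378, lost without replicate 1, 2 or 3 at 1 h or replicate 3 at 6 h). Its parent Rps27 averaged -0.04 ± 0.07 at 6 h (adjusted p = 0.766) and 0.17 ± 0.07 at 1 h (adjusted p = 0.0793). Rpl22l1, the paralog of the RNA-binding protein gene Rpl22, had -0.36, -0.04, -0.02 and -0.05 at 6 h (-0.12 ± 0.17, adjusted p = 0.652) and -0.48, -0.40, -0.63 and 0.57 at 1 h (-0.23 ± 0.17, adjusted p = 0.28). Replicate 4 had the opposite sign to the other arrays at 1 h, and without it the 1 h mean was -0.50 ± 0.09 (adjusted p = 0.00624). Rpl22 averaged 0.19 ± 0.19 at 6 h (adjusted p = 0.501) and 0.53 ± 0.19 at 1 h (adjusted p = 0.0454, with a mean of 0.27 and an adjusted p = 0.174 without replicate 4). The call of Rpl22 also ended without each of 5 other arrays.

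Rpl39l, the paralog of Rpl39 known from male germ cells, had 0.01, -0.10, 0.004 and 0.04 at 6 h (-0.01 ± 0.07, adjusted p = 0.927) and 0.18, 0.26, 0.27 and 0.56 at 1 h (0.32 ± 0.07, adjusted p = 0.00911), with no overlap between the times. Rpl36al had -0.03, 0.18, 0.35 and 0.21 at 6 h (0.18 ± 0.16, adjusted p = 0.453) and 0.43, 0.35, 0.30 and 1.37 at 1 h (0.61 ± 0.16, adjusted p = 0.0138, and 0.36 without replicate 4, where it also passed). Rpl7l1 had 0.25, 0.09, 0.01 and 0.23 at 6 h (0.14 ± 0.09, adjusted p = 0.298) and -0.10, 0.04, 0.27 and -0.32 at 1 h (-0.03 ± 0.09, adjusted p = 0.832, and 0.07 without replicate 4). Rpl7 averaged 0.18 ± 0.13 at 6 h (adjusted p = 0.369) and 0.61 ± 0.13 at 1 h (adjusted p = 0.00662).

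Between the times, 56 of 62 members had a lower mean ratio at 6 h than at 1 h, against 8039 of all 15079 features. The members' median difference was -0.31 (quartiles -0.41 and -0.16), against -0.02 over all features. Rpl3l was the 1 member that passed, higher at 6 h, and none passed lower, where 0.00663% of all features did. At an unadjusted p under 0.05, 13 members were lower and 1 was higher, against 7.16% and 8.95% of all features. For 12 members all 4 values at 6 h were below all 4 at 1 h, and for 1 member they were all above, against 4.75% and 5.05% of all features. The lowest differences, none of which passed, were those of Rps18 (-0.69 ± 0.30, adjusted p = 0.306, and -0.35 without replicate 4 at 6 h), Rpl31 (-0.68 ± 0.27, 0.276), Rpl37a (-0.53 ± 0.24, 0.315), Rpl13 (0.291, given above) and Rpl37 (-0.51 ± 0.20, 0.278). At the other end, after Rpl3l, were Rpl7l1 (0.17 ± 0.13, adjusted p = 0.512), Rpl22l1 (0.12 ± 0.24, 0.817), Rpl21 (0.10 ± 0.12, 0.691) and Rps3 (0.06 ± 0.09, 0.733). The median difference was -0.11 without replicate 4 at 1 h, when 9 members were lower and 2 higher at an unadjusted p under 0.05 (6.07% and 6.75% of all features) and none passed after adjustment.

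**Figure D4:**
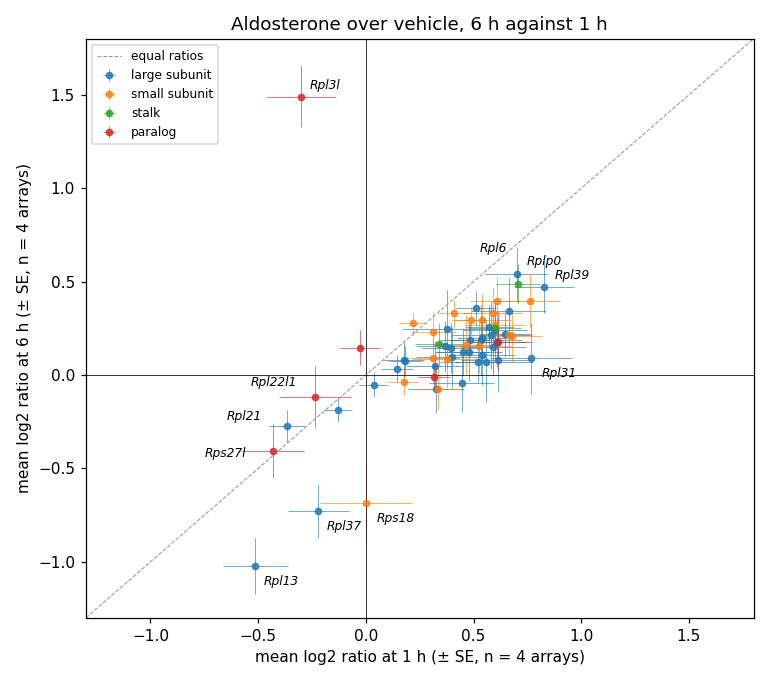
Mean log2 ratio at 6 h (vertical) against that at 1 h (horizontal) for 62 members, with standard errors from limma (n = 4 arrays each) and the line of equal ratios. Most members lie below the line and right of 0, while Rpl3l stands highest, at upper left, and Rpl13 lowest, at lower left. Of all 62 members 40 were above vehicle at 1 h and 8 at 6 h, against 19.9% and 7.11% of all features. Without replicate 4 at 1 h these counts were 32 and 22, against 13.4% and 12.3%.

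The TOP tract was looked for in RefSeq promoter sequences of GRCm38.p6, which were found for 54 members. A tract was counted where, on the transcript strand, a C within 10 bases of the annotated start was followed by 5 or more pyrimidines. In a gene with several annotated starts, a match at any of them was counted. A tract was present for 29 of 54 members (53.7%), against 22.3% of 9882 other tested genes and 21.5% of 17491 protein-coding genes. The motif CCGGAAG, the core that ETS-family factors such as Gabpa recognise, was found on either strand of the 300-base window (250 bases before the start and 50 after) for 23 members (42.6%), against 15.4% of the other tested genes. Such matches are descriptions of letters near an annotated start, which can lie some bases from the true one. A tract can end on the first letters of the motif, so the matches can overlap. Rps24 and Rps27l have 2 annotated starts each, and the start with the longest tract is printed for them. The windows below run from 40 bases before to 20 bases from the start, with the tract in capitals. They were chosen to set members that were above vehicle at 1 h (Rpl39, Rpl31, Rps24, Rps6) and a member with a long tract that passed at neither time (Rpl27a) beside the members that differed from the rest (Rpl13, Rpl37, Rpl3l, Rps27l).
Rpl39 (chrX:37085203-37085262, minus strand): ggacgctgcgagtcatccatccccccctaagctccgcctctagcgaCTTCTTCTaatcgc
Rpl31 (chr1:39367811-39367870, plus strand): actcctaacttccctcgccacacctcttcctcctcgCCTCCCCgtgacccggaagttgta
Rps24 (chr14:24490638-24490697, plus strand): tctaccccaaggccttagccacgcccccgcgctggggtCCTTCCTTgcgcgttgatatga
Rps6 (chr4:86857348-86857407, minus strand): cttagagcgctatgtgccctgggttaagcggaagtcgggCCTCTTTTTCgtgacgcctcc
Rpl27a (chr7:109519155-109519214, plus strand): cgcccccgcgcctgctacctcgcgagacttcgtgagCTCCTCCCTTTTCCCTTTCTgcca
Rpl13 (chr8:123102310-123102369, plus strand): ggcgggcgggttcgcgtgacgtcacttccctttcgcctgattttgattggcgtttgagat
Rpl37 (chr15:5116573-5116632, plus strand): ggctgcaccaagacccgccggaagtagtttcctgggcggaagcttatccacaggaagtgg
Rpl3l (chr17:24727786-24727845, plus strand): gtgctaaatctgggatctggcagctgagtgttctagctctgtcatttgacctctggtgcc
Rps27l (chr9:66946046-66946105, plus strand): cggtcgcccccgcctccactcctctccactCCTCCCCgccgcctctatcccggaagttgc

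Members with and without a tract had close medians. At 6 h 3 of the 29 members with a tract passed above vehicle and none below (median 0.15), and of 25 without one 5 were above and 2 below (median 0.18). Of all features 7.11% were above and 10.6% below at that time. At 1 h 20 of the 29 were above and 1 below (median 0.46), and of the 25 without 15 were above and 1 below (median 0.45), where 19.9% and 21% of all features were. Without replicate 4 at 1 h these counts were 16 above and 2 below with a tract (median 0.24) and 12 above and 1 below without one (median 0.20). The shares of all features were then 13.4% and 15.3%. Rpl27a, with a tract of 20 bases, had means of 0.04 ± 0.07 at 6 h (adjusted p = 0.767) and 0.14 ± 0.07 at 1 h (adjusted p = 0.137). Rpl13, Rpl37 and Rpl3l had no tract by this definition, and Rplp0 and Rps4x, which were above vehicle at 1 h, had none either. The printed window of Rpl13 holds a run of pyrimidines, cttccctttc, that begins farther before the annotated start than the definition allows. Whether a tract plays a part in how these members differ was not tested.

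Genes that work with the ribosomal proteins were set beside them. Fau, whose product is cleaved to a small subunit protein, had -0.11, 0.04, 0.05 and 0.19 at 6 h (0.04 ± 0.16, adjusted p = 0.875) and 0.23, 0.05, 0.04 and 1.16 at 1 h (0.37 ± 0.16, adjusted p = 0.0921), with its highest value on replicate 4 too. Without that array the 1 h mean of Fau was 0.11 (adjusted p = 0.314). Of 20 other transcripts known to carry a TOP tract, 7 were above vehicle and 1 below at 6 h, with a median of 0.23, and 14 were above and none below at 1 h, with a median of 0.35. Without replicate 4 at 1 h, 11 were above and none below at 1 h (median 0.28) and 11 above and 1 below at 6 h. Of all features 7.11% were above and 10.6% below at 6 h, and 19.9% and 21% at 1 h. Without that array the shares were 12.3% and 14.2% at 6 h, and 13.4% and 15.3% at 1 h. The medians of these transcripts on the 1 h arrays were 0.28, 0.22, 0.30 and 0.52, a smaller step on replicate 4 than that of the members. Among them Tpt1, the translationally controlled tumour protein, was at 0.48 ± 0.10 at 6 h (adjusted p = 0.0126) and 0.83 ± 0.10 at 1 h (adjusted p = 0.001). The elongation factor Eef1d was at 0.48 ± 0.10 at 6 h (adjusted p = 0.0143) and 0.72 ± 0.10 at 1 h (adjusted p = 0.00165), and the poly(A)-binding protein Pabpc1 at 0.26 ± 0.09 at 6 h (adjusted p = 0.0826) and 0.56 ± 0.09 at 1 h (adjusted p = 0.0025). The 6 h mean of Pabpc1 passed without replicate 4 at 1 h (adjusted p = 0.0199).

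The mitochondrial ribosome is built from a separate set of nuclear-encoded proteins. Of 66 mitochondrial ribosomal protein genes 4 were above vehicle and 5 below at 6 h (median 0.07), and 18 were above and 9 below at 1 h (median 0.14). Over all features 7.11% were above and 10.6% below at 6 h, and 19.9% and 21% at 1 h. Without replicate 4 at 1 h, 13 were above and 4 below at 1 h (median 0.12), against 13.4% and 15.3% of all features. Mrps10 was below vehicle at both times, at -0.60 ± 0.11 at 6 h (adjusted p = 0.00793) and 0.5-fold at 1 h (adjusted p = 0.000916), and so was Mrpl2 (-0.35 ± 0.10 at 6 h, adjusted p = 0.0362, and -0.71 ± 0.10 at 1 h, adjusted p = 0.00142). Mrpl21 was above vehicle at 1 h (0.65 ± 0.10, adjusted p = 0.00175) and had 0.31 ± 0.10 at 6 h (adjusted p = 0.0553). That 6 h mean passed without replicate 4 at 1 h (adjusted p = 0.0189). Of 37 genes of ribosome biogenesis 2 were above and 1 below at 6 h (median 0.10), and 12 were above and 4 below at 1 h (median 0.03). Without replicate 4 at 1 h, 7 were above and 1 below at 6 h, and 9 above and 4 below at 1 h. The shares over all features were then 12.3% and 14.2% at 6 h, and 13.4% and 15.3% at 1 h. Ubtf, which opens ribosomal DNA for RNA polymerase I, was at 0.38 ± 0.07 at 6 h (adjusted p = 0.00793) and 0.48 ± 0.07 at 1 h (adjusted p = 0.00172). The nucleolar protein gene Nop16 was at -0.58 ± 0.07 at 6 h (adjusted p = 0.00225) and -0.46 ± 0.07 at 1 h (adjusted p = 0.00239). Polr1c, a subunit shared by RNA polymerases I and III, was at 0.15 ± 0.09 at 6 h (adjusted p = 0.283) and 0.59 ± 0.09 at 1 h (adjusted p = 0.00223).

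Of 21 genes of the mTOR and S6 kinase pathway and other regulators, 2 were above vehicle and none below at 6 h (median 0.05), and 8 were above and 1 below at 1 h (median 0.15), or 6 and 1 at 1 h without replicate 4 (median 0.14). The shares over all features were 7.11% above and 10.6% below at 6 h, and 19.9% and 21% at 1 h. Without replicate 4 the 1 h shares were 13.4% and 15.3%. Eif4ebp2, a repressor of the cap-binding protein that mTOR inactivates, was at 0.47 ± 0.11 at 6 h (adjusted p = 0.0186) and 0.66 ± 0.11 at 1 h (adjusted p = 0.0025). Rps6ka3, a kinase of the RSK family, was at 0.33 ± 0.10 at 6 h (adjusted p = 0.0571) and 0.55 ± 0.10 at 1 h (adjusted p = 0.00429). Its 6 h mean passed without replicate 4 at 1 h (adjusted p = 0.00683). Eif4e, the cap-binding protein, was at -0.19 ± 0.09 at 6 h (adjusted p = 0.164) and -0.44 ± 0.09 at 1 h (adjusted p = 0.00506).

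**Figure D5:**
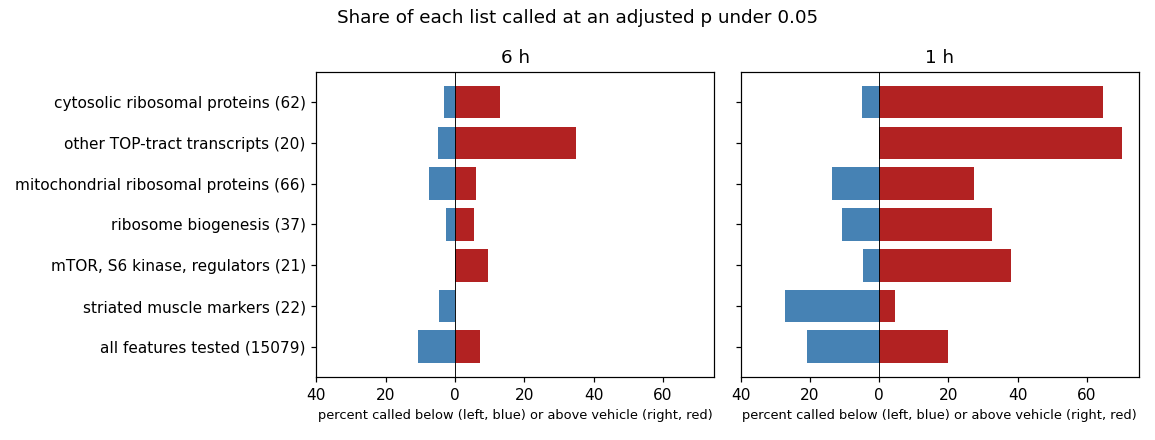
Percent of the genes of each list called above vehicle (red, right) or below (blue, left) at an adjusted p under 0.05, at 6 h on the left and at 1 h on the right, with the number of genes measured in parentheses. At 1 h the cytosolic ribosomal proteins (40 of 62 above) and the other TOP-tract transcripts (14 of 20) have the longest red bars, against 19.9% of all features, and at 6 h the bars are shorter.

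Across the 8 arrays 43 of 62 members followed the members' median with Pearson's r over 0.9, 16 had r from 0 to 0.9 and 3 had r below 0 (Rpl7l1, -0.822; Rpl3l, -0.568; Rpl21, -0.029). Without replicate 4 at 1 h, 10 members had r over 0.9 and 9 had r below 0. Each member is itself part of that median, so some likeness is built in. The share of other features with r over 0.9 was not counted, so these numbers do not compare the members with other genes. The 5 named genes outside the members with the highest r over the 8 arrays were H3f3a (0.998), Hat1 (0.994), H2-Q7 (0.993), Msln (0.992) and Igfbp7 (0.992), chosen as most alike among all named genes tested. Over 7 arrays without replicate 4 at 1 h their r was 0.989, 0.95, 0.912, 0.885 and 0.904. H3f3a, a replacement histone gene, had 0.04, 0.20, 0.27 and 0.33 at 6 h and 0.60, 0.29, 0.37 and 1.66 at 1 h.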

How the data were processed

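The authors deposited 1 log2 ratio per probe and array, Cy5 (aldosterone) over Cy3 (vehicle), read on a GenePix scanner and normalized with Bioconductor, per the labels. How background and poor spots were handled is not given in the sources used here. Signal over background is unknown. Of 16361 probes, 13768 had 1 gene symbol in the platform annotation, 13 had several and 2580 were not listed. Probes of one symbol were averaged, which left every member with its own single probe. Features with at least 3 values per time were tested (15079, of which 12536 were genes). Limma 3.58.1 (R 4.3.3) was fitted with a mean for each time and 6 residual degrees of freedom per feature, and was tested on simulated data. The labels name one-class SAM, which was run as an alternative with all sign patterns of the 4 arrays at a false discovery rate of 5%. Only 6 h replicates 3 and 4 carry numbers in the labels; the other numbers follow accession order and pair nothing. The precision is limited by 4 arrays per time.

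The members and lists were chosen with earlier results of these data known. Members singled out were Rpl13, Rpl3l, the stalk genes, Rpsa, the paralogs, the 6 highest and 4 lowest called means at each time and the 5 largest and smallest differences; of other lists, the 3 genes with the smallest p. Rps6, Rps20, Rps24, Rps3a1, Rpl3, Rpl5, Rpl11, Rpl13a, Rpl14, Rpl27a and the parents of paralogs were added after their values were seen. Lists are described by counts and medians, with no list test. Alternatives were other scalings, filters, single probes, robust moderation, array weights, each time alone and leaving out each array. Figures were drawn with matplotlib 3.10.9.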

Additional observations from a re-analysis of the deposited data

Results flagged for a closer look

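The median of the 62 members on replicate 4 at 1 h, 1.10, lay far from the other 3 arrays of that time (0.20 to 0.34). The same array was an outlying high value for 17 of 62 members at 1 h, among them Rpl36al (1.37), Rpl6 (1.42), Rplp1 (1.18), Rplp2 (0.79) and Rps3 (0.29), and no other array at 1 h was an outlying value for any member. For Rps3 the gap is small in size, since its other values at 1 h were 0.19 to 0.20. At 6 h, 6 members had an outlying array. Of those given singly, Rpl21 had -0.56 on replicate 4, against -0.20 to -0.16 on the others. Rps27l had -0.98 on replicate 4, against -0.28 to -0.15. Rpl22l1 had -0.36 on replicate 1, against -0.05 to -0.02. Chance gives such a value in about 5% of groups, and members on one array are not independent, so the 17 flags at 1 h count as 1 event of that array.

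Rpl3l differed between the times, with 6 h minus 1 h at 1.79 ± 0.23 on the log2 scale (limma adjusted p = 0.0445, lost when any one array was left out).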

How the results depend on the processing

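At 6 h the counts of calls moved more than the median did. With arrays scaled to one spread (MAD), 23 members were above vehicle and 6 below at 6 h (15.7% and 17.4% of all features). Quantile normalization gave 22 and 6 (15.1% and 17.1%), array weights 18 and 5 (12.1% and 14.7%), one-class SAM 26 and 6 (16.1% and 19.1%), and each time fitted alone 15 above (6.91%). Without these changes 7.11% and 10.6% of all features were called. At 1 h each time alone gave 26 above (14.3%). Requiring also 1.5-fold left 1 above at 6 h (1.01% of all features), and 18 above and 0 below at 1 h (2.67% and 5.25%). With each probe by itself 0 members were higher at 6 h than at 1 h. With an array left out, members above vehicle ran from 1 to 22 at 6 h and from 30 to 42 at 1 h, those below from 2 to 3 at 6 h and from 1 to 4 at 1 h, and 0 members passed in the difference. Of these fits, shares over all features were counted only for that without replicate 4 at 1 h. The members' median with an array left out ran from 0.12 to 0.20 at 6 h, from 0.25 to 0.54 at 1 h and from -0.40 to -0.11 for the difference. With MAD scaling, quantile normalization and array weights the 6 h median was 0.18, 0.18 and 0.16, against 0.16 in the main fit. The 1 h median was 0.36, 0.38 and 0.29, against 0.47. Members above vehicle at 1 h numbered 40, 41 and 35 (17.8%, 18.6% and 21% of all features), against 40 (19.9%) in the main fit. For the difference the median was -0.16, -0.19 and -0.14, against -0.31. Signs turned in values near 0 that passed under no setting: Rpl7l1 at 1 h (0.01 with MAD scaling and quantile normalization, 0.06 with array weights, and -0.13 to 0.07 with an array left out), Rpl22l1 in the difference (-0.01 to 0.39 with an array left out), Rpl39l at 6 h (-0.03 to 0.02) and Rpl37a at 6 h (-0.01 to 0.15). Of 494 values of single members under settings other than leaving out an array, 462 kept their direction and side of the threshold, 5 lost a call and 24 gained one. Of 448 with an array left out these numbers were 399, 38 and 7. Causes were not tested. No paired analysis was possible because the labels number only 2 of the 8 arrays.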
